A study of Mus musculus with 12 samples.

Results

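The 1434 regions described here were CpG-rich stretches of accessible chromatin whose centers lay away from annotated promoters. They were chosen from the 170548 regions of the merged ATAC-seq peak list. They were the autosomal regions of 200 to 5000 bp whose center was more than 1 kb from every transcription start site (TSS) of the GENCODE annotation, with a GC content of at least 55% and an observed over expected CpG ratio of at least 0.65. They were 1434 of 108383 distal regions in this width range, which is 1.32% (95% Wilson interval 1.26 to 1.39%), and 1434 of the 10351 CpG-rich regions at any distance, the other 8917 being promoter-proximal. They are named CpG-rich distal regions below and are set beside the 106949 other distal regions and the 8917 CpG-rich proximal regions. GC content, CpG ratio, width and TSS distance chose the members, so these measures are given as a description only.

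CpG islands are stretches of the genome in which CpG dinucleotides have been kept, mostly because they stay free of DNA methylation in the germ line. Most of them lie at promoters, and those that do not are often named orphan CpG islands. Proteins with a CXXC domain bind unmethylated CpGs, and at the genes of developmental regulators such islands are known to be covered by the Polycomb repressive complexes in embryonic stem (ES) cells.

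ATAC-seq marks accessible DNA by the insertion of sequencing adapters with a transposase. The list merges ATAC-seq peaks of ZHBTc4 and 2TS22C mouse ES cells. The 12 libraries here formed 6 groups of 2 replicates, all grown with serum, LIF and inhibitors of GSK3 and MEK. The paper also used published data of ZHBTc4 cells grown in serum and LIF, and whether their peaks entered the list is not known. ZHBTc4 cells, which carry Pou5f1 (the gene of OCT4) under a Tet-Off promoter, were left untreated (OCT4 ON) or given doxycycline (dox) for 24 hr (OCT4 OFF), and 2TS22C cells, which carry Sox2 under a Tet-Off promoter, were kept without dox (SOX2 ON) or with it (SOX2 OFF) for either 26 hr or 40 hr. The dox dose in the sample labels is 1 µg/ml. The list holds the position of each merged region without a height or a value per library, so neither depth nor a difference between ON and OFF cells could be computed, and the condition in which a region was accessible is not known. Intervals below are 95% Wilson intervals over regions, islands or genes. These are not replicates of a condition, and the intervals cover counting error only. A merged region lay within 1 kb of a TSS of 10 of 10 ES cell markers, but also of 7 of 7 trophoblast, 6 of 6 endoderm and 6 of 6 fibroblast markers, so this measure did not set the cell types apart.

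Sequences of 300 bp around the center are shown for 5 members and 1 other distal region, so that the density of CpGs can be seen. All are from the plus strand of GRCm38 (mm10), and each CpG is in capitals. The first 4 had the most CpGs within these 300 bp among the printable members (in introns or intergenic sequence and at least 300 bp wide) nearest to homeobox genes, to other developmental transcription factor genes, to developmental signalling genes and to pluripotency genes. The homeobox example, with 43 CpGs, lay at chr4:139821516-139821815 in an intron of Pax7, a regulator of muscle stem cells, 11.3 kb downstream of its TSS.
Pax7 region: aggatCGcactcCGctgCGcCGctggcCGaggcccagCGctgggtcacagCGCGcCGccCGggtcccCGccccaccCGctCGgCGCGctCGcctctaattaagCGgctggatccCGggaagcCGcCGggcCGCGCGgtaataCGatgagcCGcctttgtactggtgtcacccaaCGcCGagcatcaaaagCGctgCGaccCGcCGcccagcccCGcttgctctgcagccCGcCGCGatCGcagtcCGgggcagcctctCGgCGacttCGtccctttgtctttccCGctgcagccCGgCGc
The region at chr7:137322630-137322929 was intergenic, 8.34 kb upstream of Ebf3, a transcription factor gene of neuronal development, and had 49 CpGs. The center of this member was 24 bp from a TSS of a RefSeq transcript.
Ebf3 region: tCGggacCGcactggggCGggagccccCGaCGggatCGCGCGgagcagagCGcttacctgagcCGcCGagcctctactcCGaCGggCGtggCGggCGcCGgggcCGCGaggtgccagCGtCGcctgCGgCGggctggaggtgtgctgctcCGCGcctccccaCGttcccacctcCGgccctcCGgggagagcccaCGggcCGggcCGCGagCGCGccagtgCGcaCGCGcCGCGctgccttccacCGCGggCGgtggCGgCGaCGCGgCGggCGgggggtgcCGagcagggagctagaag
The region at chr7:67951635-67951934 had 53 CpGs. Its center was intergenic, only 1.04 kb from the TSS of the growth factor receptor gene Igf1r and 472 bp from a RefSeq TSS. The whole member around these bases was 2294 bp wide, so that it covered the Igf1r TSS.
Igf1r region: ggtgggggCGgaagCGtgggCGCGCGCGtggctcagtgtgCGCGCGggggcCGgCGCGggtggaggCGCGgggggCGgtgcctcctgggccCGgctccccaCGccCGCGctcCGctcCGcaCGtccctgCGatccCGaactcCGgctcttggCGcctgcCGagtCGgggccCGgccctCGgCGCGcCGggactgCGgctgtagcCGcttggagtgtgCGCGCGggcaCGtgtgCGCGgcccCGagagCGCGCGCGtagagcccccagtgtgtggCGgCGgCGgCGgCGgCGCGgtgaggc
The region at chr4:55514837-55515136, with 29 CpGs, was intergenic and 16.8 kb from the TSS of Klf4, which encodes a pluripotency factor.
Klf4 region: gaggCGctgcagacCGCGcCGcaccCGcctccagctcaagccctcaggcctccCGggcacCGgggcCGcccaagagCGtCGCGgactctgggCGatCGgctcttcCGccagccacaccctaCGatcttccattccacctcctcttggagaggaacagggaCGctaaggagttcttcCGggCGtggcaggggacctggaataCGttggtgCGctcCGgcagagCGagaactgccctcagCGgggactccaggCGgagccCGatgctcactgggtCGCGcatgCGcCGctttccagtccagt
A member with the median CpG ratio of all members lay at chr16:94094781-94095080 in an intron of Sim2, 10.0 kb from the TSS of this neural transcription factor gene, and had 17 CpGs.
Sim2 region: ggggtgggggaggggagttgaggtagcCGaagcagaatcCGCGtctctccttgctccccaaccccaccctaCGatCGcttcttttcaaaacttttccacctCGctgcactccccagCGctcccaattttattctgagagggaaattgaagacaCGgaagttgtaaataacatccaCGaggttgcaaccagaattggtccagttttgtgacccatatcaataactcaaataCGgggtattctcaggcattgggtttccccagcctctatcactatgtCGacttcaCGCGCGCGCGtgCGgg
For contrast, a distal region with the median CpG ratio of the other distal regions, in an intron at chr17:48484128-48484427 and 21.9 kb from the TSS of Unc5cl, had 4 CpGs.
Unc5cl region: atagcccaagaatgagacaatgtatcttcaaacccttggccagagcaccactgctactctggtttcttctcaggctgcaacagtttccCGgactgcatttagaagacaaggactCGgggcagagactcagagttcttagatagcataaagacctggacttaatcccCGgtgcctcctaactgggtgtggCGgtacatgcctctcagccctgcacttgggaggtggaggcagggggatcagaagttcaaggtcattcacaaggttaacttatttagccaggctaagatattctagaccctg

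The members had a median width of 621 bp, between the 425 bp of the other distal regions and the 1192 bp of the CpG-rich proximal regions. Their median GC content was 62.2%, and the middle 80% of them held between 17 and 111 CpGs, with a median of 44, against a median of 5 in the other distal regions. Their median CpG ratio was 0.733, compared with 0.224 in the other distal regions and 0.787 in the CpG-rich proximal regions. At the limits of the rule, the member with the lowest CpG ratio (0.65) had Gm13420 as its nearest protein-coding gene, while a region at Hoxc4 with 0.64997 was left out. The member with the lowest GC content had 55%, and the closest region outside had 54.99%. A region of 200 bp near Ccbe1 was in and one of 199 bp near Hrk was out. A region centered 1002 bp from a TSS at Zic1 was in, and one centered 1000 bp from a TSS at Egr4 was out. The widest member had 3386 bp.

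More than 1 in 3 members sat in protein-coding sequence. The center of 521 of the 1434 (36.3%, interval 33.9 to 38.9%) lay in a coding exon, compared with 2.79% (2.69 to 2.89%) of the other distal regions and 18.3% (17.5 to 19.1%) of the CpG-rich proximal regions. A further 38 members were centered in 3' UTRs, 8 in 5' UTRs and 33 in exons of transcripts without coding sequence, which brought the share in exons to 41.8% (39.3 to 44.4%), against 6.22% (6.08 to 6.37%) for the other distal regions. Introns held 321 members (22.4%, 20.3 to 24.6%), while they held 46.9% of the other distal regions, and intergenic sequence held 513 (35.8%, 33.3 to 38.3%), against 46.9%. In 476 members (33.2%) more than 50% of the bases were coding, which was so in 1.88% of the other distal regions and in 5.88% of the CpG-rich proximal regions. In the genome sequence, 2036 CpG islands of at least 500 bp had no TSS within 1 kb and at most 50% in annotated repeats. More than 1 in 3 of these islands, with or without a merged region, were centered in coding exons (787), and likewise in intergenic sequence (704). Among the 1235 members with at most 50% in repeats, 521 (42.2%) and 368 (29.8%) were so placed. The rule set the GC content of the members, and its part in these shares was not tested.

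**Figure D1:**
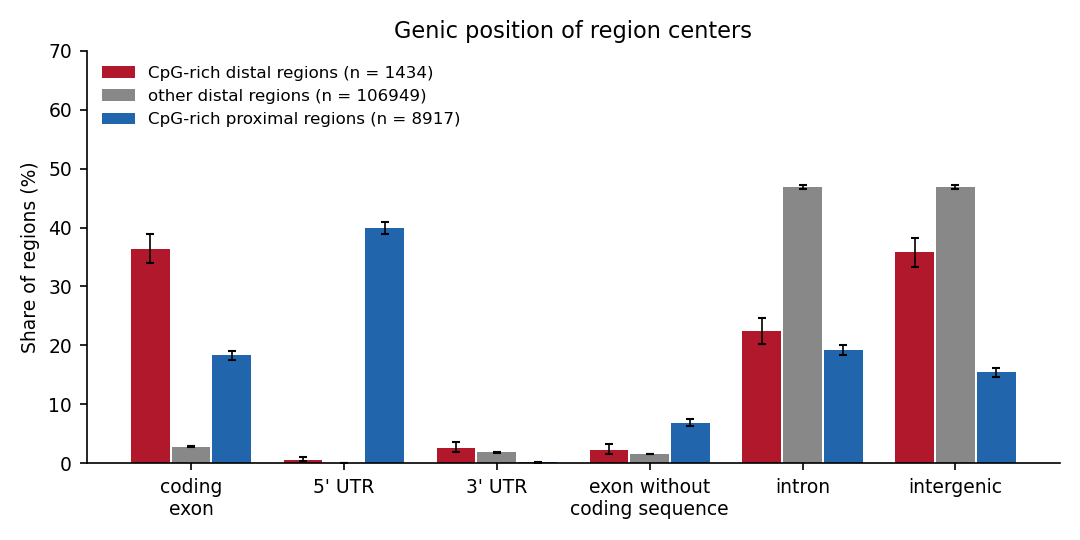
Share of region centers (vertical axis, %) in each annotated position for the CpG-rich distal regions, the other distal regions and the CpG-rich proximal regions, with 95% Wilson intervals as error bars. Coding exons held 36.3% of the CpG-rich distal regions and 2.79% of the other distal regions, while 39.9% of the CpG-rich proximal regions were centered in 5' UTRs.

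The coding exons that held members were long and often the last of their gene. For 485 of the 521 the center was in an exon of the longest transcript around it. Of these, 281 (57.9%, 53.5 to 62.3%) were in its last exon, compared with 30.7% (29.0 to 32.5%) of the other distal regions centered in coding exons, and 26 (5.36%) were in its first exon. The exon had a median length of 1431 bp, against 384 bp for the other distal regions. In Neurod2, a transcription factor gene of neuronal differentiation, a member of 2162 bp (chr11:98326903-98329064) was centered in exon 2 of 2 and was 53.1% coding. In Prdm13, a regulator of neuronal cell fate, a member of 1905 bp (chr4:21678144-21680048) with 195 CpGs was centered in exon 4 of 4, 6.69 kb from the TSS, and was 90.3% coding. The last exons of the homeobox genes Uncx (exon 3 of 3) and Nkx2-3 (exon 2 of 2) held members of 1422 bp and 1026 bp. In Casz1, a zinc finger gene of heart and neural development, a member of 1230 bp lay in exon 21 of 21, 19.1 kb from the nearest protein-coding TSS and 109 bp from a RefSeq TSS. The member in exon 3 of 5 of Klf4, chr4:55530297-55530923, was entirely coding and 1.16 kb from a TSS. The widest member of all was intergenic, but the next in width were centered in coding exons. They had 3245 bp in the gene Prob1, in a transcript of 1 exon, and 2797 bp at Foxb1. In Foxb1, a forkhead gene of the developing brain, the center was in exon 2 of 2. The widest member, that of Prob1 and that of Foxb1 were centered 1273, 1316 and 1007 bp from the nearest TSS. Each was wide enough to cover this TSS, and the island of each reached to within 1 kb of a TSS.

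Where members were in introns of their host, 141 of 301 (46.8%, 41.3 to 52.5%) were in the first intron, against 28.3% (27.9 to 28.7%) of the other distal regions and 82.8% of the CpG-rich proximal regions. Members inside protein-coding genes were centered at a median of 63.4% of the way from the start to the end of the host, and those of the other distal regions at 52.5%. A protein-coding transcript ended within 1 kb of 254 members (17.7%, 15.8 to 19.8%), compared with 4.13% of the other distal regions. The host was not always the gene with the nearest TSS. Of the members, 639 (44.6%) lay inside the gene of their nearest protein-coding TSS and 188 (13.1%) inside another protein-coding gene, while 376 lay outside protein-coding genes and upstream and 231 outside them and downstream. For instance, the member nearest to the TSS of Dnmt3l, a cofactor of germ line DNA methylation, was in exon 11 of 14 of Aire, the thymic self-antigen regulator, and the one nearest to the TSS of Gbx2 was in a coding exon of Asb18.

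The distance to the nearest TSS of any gene had a median of 4914 bp, and the members spread over all distance classes. There were 339 members (23.6%) at 1 to 2 kb, 387 (27.0%) at 2 to 5 kb, 244 (17.0%) at 5 to 10 kb, 378 (26.4%) at 10 to 50 kb and 86 farther than 50 kb. The other distal regions had a median of 12198 bp, with 6.94% at 1 to 2 kb. For 937 members (65.3%) the nearest TSS was that of a protein-coding gene.

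A share of the members was close to a promoter by other measures than the distance of the center from a GENCODE TSS. A TSS of a RefSeq transcript lay within 1 kb of 160 members (11.2%, 9.63 to 12.9%), compared with 2.84% of the other distal regions. In 203 members (14.2%, 12.4 to 16.1%) the CpG island that they overlapped reached to within 1 kb of a TSS, where an island is a joined run of 200 bp windows with the GC content and CpG ratio of the rule. This was so for 195 of the 339 members at 1 to 2 kb (57.5%, 52.2 to 62.7%) and for 8 of the 1095 members beyond 2 kb (0.731%). Islands of members in introns reached a promoter in 21.5%, those of members in coding exons in 18.8% and those of intergenic members in 4.09%. At Nr2f2, which encodes an orphan nuclear receptor of vessel and heart development, a member of 1418 bp with a CpG ratio of 1.04, 1.07 kb from the nearest TSS, was in an island that came within 1 kb of a TSS, while the member at chr7:70280174-70281757, 79.0 kb from its TSS, was in an island of 1541 bp that did not. A promoter-proximal merged region lay within 1 kb of 185 members (12.9%), against 1.82% of the other distal regions.

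Genes of developmental regulators were the nearest protein-coding genes of more than 1 in 5 members. The nearest protein-coding TSS belonged to 1 of 3 developmental lists (homeobox genes, other developmental transcription factor genes, developmental signalling genes) for 321 members (22.4%, 20.3 to 24.6%), for 5.74% (5.60 to 5.88%) of the other distal regions and for 6.55% (6.05 to 7.08%) of the CpG-rich proximal regions. The 614 autosomal genes of these lists are 2.95% of the protein-coding genes, and 218 of them (35.5%, 31.8 to 39.4%) had at least 1 member, compared with 1208 of all 20780 genes (5.81%, 5.50 to 6.14%). Nearest to homeobox genes there were 130 members, which were 8.24% (6.98 to 9.70%) of the 1578 distal regions there. The other transcription factor genes had 131 of 2565 (5.11%, 4.32 to 6.03%), and the signalling genes, which encode ligands, receptors and their modulators, had 60 of 2316 (2.59%, 2.02 to 3.32%). Channel genes had 22 members (1.77%, 1.17 to 2.67%), and ribosomal protein and proteasome genes, which are active in all cells, had 4 (0.870%, 0.339 to 2.21%). The intervals of these last lists included the 1.32% of all genes, and so did that of the pluripotency genes. Of the 2036 CpG islands described above, with or without a merged region, 429 had a gene of the 3 developmental lists nearest. This is also more than 1 in 5, as among the members. Among the 1235 members with the same limit on repeats, 309 (25.0%, 22.7 to 27.5%) had such a gene nearest. Length was not matched between these islands and members. The part of base composition in the developmental share of the members was not tested.

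**Figure D2:**
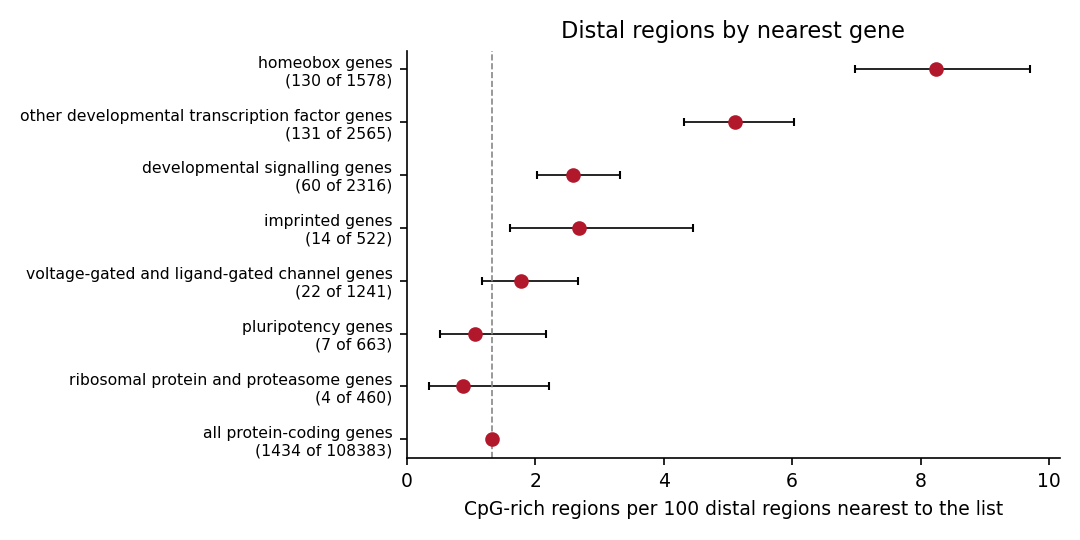
Number of CpG-rich regions per 100 distal regions (horizontal axis) among the distal regions whose nearest protein-coding TSS is in each list, with 95% Wilson intervals and with both numbers in parentheses. The dashed line marks the 1.32 of all genes, and homeobox genes stood highest at 8.24.

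The developmental share was above that of the other distal regions at each distance and position. It was 28.9% (24.6 to 33.6%) for members 2 to 5 kb from a TSS, against 4.47% of the other distal regions, and 14.8% (11.6 to 18.7%) for members at 10 to 50 kb, against 5.90%. Beyond 50 kb it was 17.4% (10.9 to 26.8%), against 8.98% (8.53 to 9.46%). By position, it was 25.9% (21.4 to 30.9%) in introns, 24.4% (20.9 to 28.3%) in intergenic sequence and 94 of 521 (15.0 to 21.6%) in coding exons, while the other distal regions had 4.88%, 6.68% and 5.13%. Of the 321 members at these genes, 157 (48.9%) lay inside the gene itself, 90 outside protein-coding genes and upstream and 57 outside them and downstream.

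**Figure D3:**
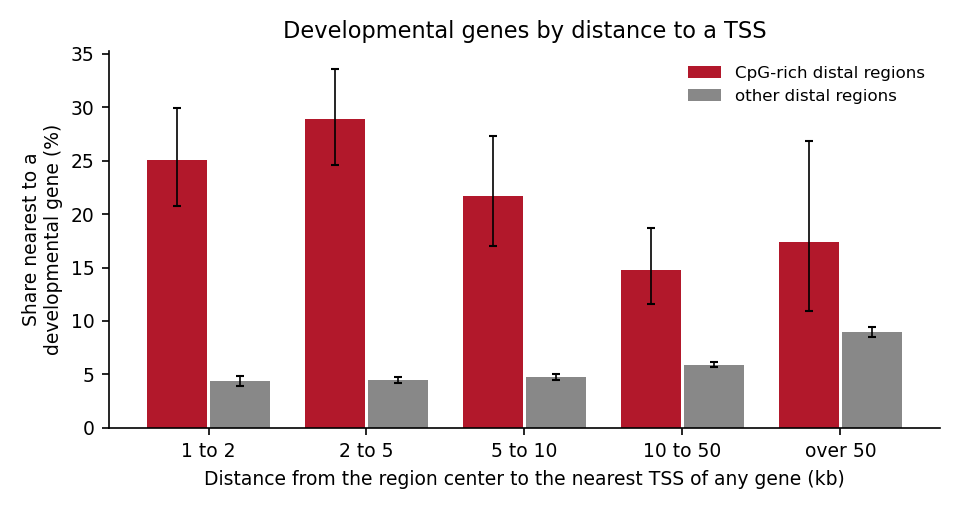
Share of regions whose nearest protein-coding TSS is in the 3 developmental lists (vertical axis, %) by the distance of the center from the nearest TSS (horizontal axis, kb), with 95% Wilson intervals. The share of CpG-rich distal regions lay between 14.8% and 28.9%, and that of the other distal regions between 4.40% and 8.98%.

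Most of the 1208 genes with a member had a single one (1035 genes), 133 had 2, 28 had 3, 11 had 4 and 1 had 5. The gene with 5 was Casz1, with 3 members in its intron 1, 1 in its last exon and 1 in intergenic sequence 61.5 kb upstream. The 3 intronic members overlapped the same island of 1606 bp. Nr2f2 followed with 4 members that summed to 5032 bp among 56 distal regions. Of these members, 1 was in its intron 1, 2 were in introns of other transcripts and 1 was in intergenic sequence. Ebf3 had 3 intergenic members between 2.80 and 8.34 kb upstream and 1 of 1500 bp in an intron. Pax2, a regulator of kidney and midbrain development, had 4 intergenic members, all upstream, between 9.30 and 83.8 kb from its GENCODE TSS, and those at these 2 ends were 145 and 212 bp from a RefSeq TSS. Nr4a2, a nuclear receptor gene of dopaminergic neurons, had 4 members, of which the one 267 kb away was 96.7% in annotated repeats.

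Among the 10 genes with the most members, Casz1 and 3 others were in none of the lists. Cbx8, a subunit of the Polycomb repressive complex that reads histone methylation, had 3 intergenic members and 1 in its 3' UTR, between 3.67 and 15.8 kb from its TSS. The 4 members of Dhx15, an RNA helicase of splicing, lay side by side between 74.5 and 77.4 kb from its TSS, and the nearest GENCODE TSS, that of Gm43177, was between 1328 and 4232 bp away. The nearest RefSeq TSS was between 131 and 2376 bp away. The 4 members nearest to 1700001O22Rik spanned 6.89 to 93.7 kb, and the one at 29.8 kb was 328 bp from a RefSeq TSS.

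Of the 188 homeobox genes, 85 (45.2%, 38.3 to 52.4%) had a member and 34 had 2 or more. Uncx, a regulator of somite and neuron patterning, had 4, in its last coding exon, in an intron of another transcript 2.96 kb upstream and in intergenic sequence 13.9 and 41.5 kb downstream. Nkx2-3, a gene of gut and spleen development, had 4 members, of which a pair of 291 bp and 1029 bp lay 12.4 and 11.1 kb upstream, and 1 was 4.24 kb downstream and 382 bp from a RefSeq TSS. Lhx5, a forebrain regulator, had 4, of which a member of 229 bp with a CpG ratio of 1.06 was entirely coding. The 3 members of Otp, which specifies hypothalamic neurons, were all intergenic, at 6.83 and 2.01 kb upstream and 10.0 kb downstream. Pax7 had 3 members, all in its introns. Irx5 had 1 in a coding exon, 1 in an intron and 1 of 1142 bp 103 kb downstream with a CpG ratio of 0.958. In the Hox clusters, which set position along the body axis, 13 genes had 14 members (0.976%, 0.582 to 1.63%), 5 of them centered in coding exons, against 0.0580% of the other distal regions.

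Of the 222 other developmental transcription factor genes, 84 (37.8%, 31.7 to 44.4%) had a member and 31 had 2 or more. Prdm13 had 3, of which 1 was the coding member above, 1 lay 3.08 kb upstream in 1420 bp with 120 CpGs, and 1 lay 316 kb away and was 100% in annotated repeats. Neurod2 had 3, with intergenic members 9.21 kb upstream and 34.8 kb downstream, the latter 208 bp from a RefSeq TSS. Of the 204 signalling genes, 49 (24.0%, 18.7 to 30.3%) had a member and 10 had 2 or more. The Wnt ligand gene Wnt7b had 3, of which 1 was in its intron 1 and 2 were intergenic, 43.5 and 52.3 kb upstream, the farther one 160 bp from a RefSeq TSS. Wnt11 had a member of 1718 bp 19.3 kb upstream and a member of 1121 bp in an intron, which were 364 and 439 bp from a RefSeq TSS. The member of 906 bp nearest to the TSS of Wnt10a was in exon 4 of 4 of the neighbouring Wnt6, and a member of 839 bp was in exon 4 of 4 of Wnt10a. Both members of Cyp26c1, a retinoic acid hydroxylase, were centered in coding exons. Ephb3, an ephrin receptor, had 1 in a coding exon and 1 in a transcript without coding sequence 36.3 kb away. Both members of Shh, the Sonic hedgehog ligand, were in its introns, 256 bp and 1151 bp wide, the wider one 121 bp from a RefSeq TSS.

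Of the 38 pluripotency genes, 5 (13.2%, 5.75 to 27.3%) had a member, beside 5.81% of all genes, and the 7 members were 1.06% (0.512 to 2.16%) of the 663 distal regions nearest to the list, beside 1.32% of all distal regions. Besides the pair of Klf4, Tbx3 had 2 members, of 204 bp in its last exon and of 215 bp 77.9 kb downstream, among 49 distal regions. Jarid2, a Polycomb cofactor, had 1 member of 500 bp in an intron with a CpG ratio of 1.08 among 67 distal regions. Pou5f1 and Sox2 had none. Imprinted genes had 14 members, 2.68% (1.60 to 4.45%) of 522 distal regions, at 10 of 66 genes. Cdkn1c, an inhibitor of the cell cycle, had 3 intergenic members between 4.04 and 14.9 kb from its TSS. Gnas had 2 and Zfp64 had 2, all centered in coding exons of at least 1 transcript. Zdbf2 had a member of 1106 bp in its last exon, 83.9% coding, and Trappc9 had an intergenic one 6.52 kb upstream. In an intron of Igf2r, the receptor that clears IGF2, a member of 652 bp (chr17:12742169-12742820) was 1097 bp from the TSS of Airn, the antisense RNA of this locus, and its island reached to within 1 kb of a TSS.

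Members were spread over 1181 windows of 100 kb, of which 998 held a single member, 136 held 2 and 4 held 5 or more. The window with the most, on chromosome 18 from 36900001 to 37000000, held 7 members among 7 distal regions, each centered in a coding exon of the protocadherin alpha cluster, whose large variable exons encode adhesion proteins of neurons. A window at the protocadherin gamma genes on chromosome 18, from 37700001 to 37800000, held 5 members, all of them in coding exons. Together, 20 protocadherin genes, chosen after their values were seen, had 22 members (1.53%, 1.02 to 2.31%), 17 of them in coding exons, against 0.292% (0.261 to 0.326%) of the other distal regions. Protocadherin exons are similar in sequence, so that reads could be shared among them, and whether this bears on these counts was not tested. Within 5 kb of 183 members (12.8%, 11.1 to 14.6%) there was a further member. By chromosome, the members ranged from 0.715% of the distal regions on chromosome 16 (30 members) to 2.18% on chromosome 11 (147 members), with 2.16% on chromosome 7.

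Soft-masking, which marks annotated repeats, split the members into unequal groups. The median soft-masked share was 4.89%, but in 199 members (13.9%, 12.2 to 15.8%) more than 50% of the bases were masked, and in 154 (10.7%) at least 90% were, compared with 18.3% and 5.22% of the other distal regions and 0.0785% and 0.0449% of the CpG-rich proximal regions. Of the 199 masked members 145 (72.9%, 66.3 to 78.6%) were intergenic. Centered in coding exons were 0 of 199, where a limit of 3 counts allows a share of up to 1.51% (Wilson upper limit 1.89%). The other distal regions with more than 50% masked had 63.0% in intergenic sequence and 0.138% in coding exons. The developmental share of the masked members was 6.03% (3.48 to 10.2%), against 25.0% (22.7 to 27.5%) for the 1235 members with at most 50% masked. In the other distal regions these shares were 3.68% and 6.20%. At least 50% of the words of 20 bases were also found in another member in 166 of the 199 (83.4%, 77.6 to 87.9%), and in 21 of the 1235 (1.70%). The 5 members farthest from any TSS, between 225131 and 345823 bp away, were between 93.5% and 100% masked. They lay nearest to the TSSs of Acvr2a, Grm7, Lrrn3, B3galt2 and Efr3a among protein-coding genes, and their widths were 212 to 412 bp. How reads that match several copies of a repeat were placed can bear on these members, and this was not tested. A member with 17.4% masked, of 1009 bp in an intron of Lmx1a, a homeobox gene of dopaminergic neurons, lay 113 kb from its TSS.

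To ask how many orphan islands carried accessible chromatin, islands were found in the autosomal sequence itself, without the use of the list. Of 47417 islands without a TSS within 1 kb, 14042 (29.6%, 29.2 to 30.0%) overlapped a merged region, compared with 18894 of 25069 islands (75.4%, 74.8 to 75.9%) that had one. The share increased with length in both groups, from 22.4% of the orphan islands of 200 to 299 bp through 35.8% and 62.7% to 75.9% (71.6 to 79.7%) of those of 1000 bp or more, while the promoter islands of these classes had 41.8%, 67.6%, 95.5% and 99.6%. The part of length as such in this order was not tested. Among orphan islands of at least 500 bp, 1659 of the 2036 with at most 50% masked (81.5%, 79.7 to 83.1%) and 864 of the 1900 with more than 50% masked (45.5%, 43.2 to 47.7%) overlapped a region. By position, the share of the 2036 islands was 84.4% (81.7 to 86.7%) in coding exons, 80.8% (77.8 to 83.6%) in intergenic sequence and 76.4% (72.2 to 80.1%) in introns. With a developmental gene as the nearest protein-coding gene it was 385 of 429 (89.7%, 86.5 to 92.3%), and with another gene 1274 of 1607 (79.3%, 77.2 to 81.2%). Promoter islands with the same limits of length and masking had 96.3% (94.8 to 97.4%) and 97.8% (97.5 to 98.0%). Island length was not matched between these gene groups.

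**Figure D4:**
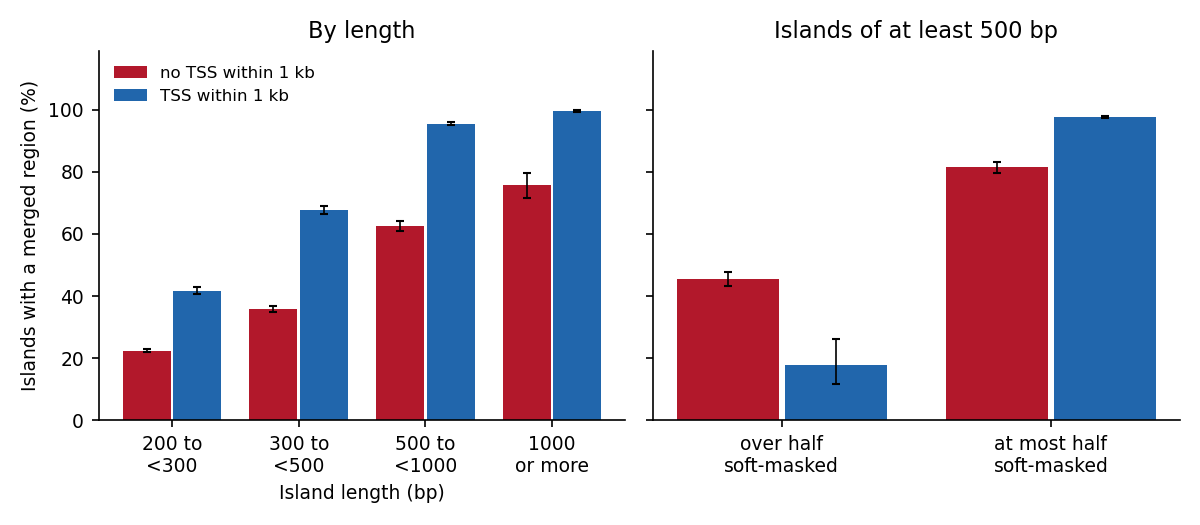
Share of sequence-defined CpG islands that overlap a merged region (vertical axis, %), by island length in bp (left) and, for islands of at least 500 bp, by soft-masked share (right), for islands without and with a TSS within 1 kb. Error bars are 95% Wilson intervals, and 81.5% of the orphan islands in the right-hand pair overlapped a region, against 97.7% of the promoter islands.

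Both strands of the central 200 bp were read for motifs, so that regions of all widths were read over the same length. The members were chosen for GC content and CpG ratio, and most of the motifs below hold a CpG or are rich in G and C. The part of base composition in the motif shares was not tested. The GC box GGGCGGGG, which SP and KLF factors bind, was found in 141 members (9.83%, 8.40 to 11.5%), in 1.92% (1.84 to 2.00%) of the other distal regions, in 21.3% (20.5 to 22.2%) of the CpG-rich proximal regions and in 3.95% of all 134059 autosomal regions of the same widths. Among members it was found in 15.3% of those in introns, 11.9% of the intergenic and 3.45% of those in coding exons. The AP-2 element GCCNNNGGC was found in 24.5% (22.3 to 26.8%) of the members, 7.81% of the other distal regions, 29.3% (28.4 to 30.3%) of the CpG-rich proximal regions and 9.90% of all regions. The E-box CACGTG was found in 7.18% (5.96 to 8.64%) of the members, with 10.2% in coding exons, in 5.14% (4.70 to 5.61%) of the CpG-rich proximal regions and in 3.64% of all regions. The CTCF core AGGGGGCGC was found in 1.81% (1.24 to 2.64%), against 0.626% of the other distal regions, 1.68% (1.44 to 1.97%) of the CpG-rich proximal regions and 0.736% of all. The ETS element CCGGAAGT was found in 9 members (0.628%, 0.331 to 1.19%) and in 0.377% (0.342 to 0.415%) of the other distal regions. The CpG-rich proximal regions had 3.47% (3.11 to 3.87%) and all regions 0.735%.

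The motifs of the factors that the study depletes were found in a smaller share of the members than of the other distal regions. The octamer ATGCAAAT, which OCT4 binds, was found in 13 members (0.907%, 0.531 to 1.54%), compared with 2.33% (2.24 to 2.42%) of the other distal regions, 0.370% (0.264 to 0.519%) of the CpG-rich proximal regions and 2.05% of all. The SOX element CATTGTT was found in 10 members (0.697%, 0.379 to 1.28%), in 4.56% (4.43 to 4.68%) of the other distal regions, in 0.583% of the CpG-rich proximal regions and in 4.00% of all. These letters are poor in G and C and the members were chosen for GC content, and the part of base composition was not tested. The YY1 element AAGATGGCG was found in 93 members (6.49%, 5.32 to 7.88%), against 1.49% of the other distal regions and 1.50% of all. Of these 93, 83 were among the 199 masked members (41.7%), against 7.04% of the other distal regions with more than 50% masked. The element was in 0.810% of the members with at most 50% masked, against 0.245% of such other distal regions. The remaining motifs, NRF1 core GCGCATGCG, CRE TGACGTCA, palindrome CTCGCGAG, E2F element TTTCCCGC and REST half-site GGACAGCGC, were each found in at most 16 members. In this order, the members had 0.767%, 0.558%, 0.418%, 1.12% and 0.279%. The other distal regions had 0.123%, 0.208%, 0.0206%, 0.237% and 0.125%. The CpG-rich proximal regions had 1.37%, 1.23%, 1.11%, 1.47% and 0.819%, and all regions 0.257%, 0.337%, 0.118%, 0.383% and 0.200%. A match is a sequence of letters and does not show binding.

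**Figure D5:**
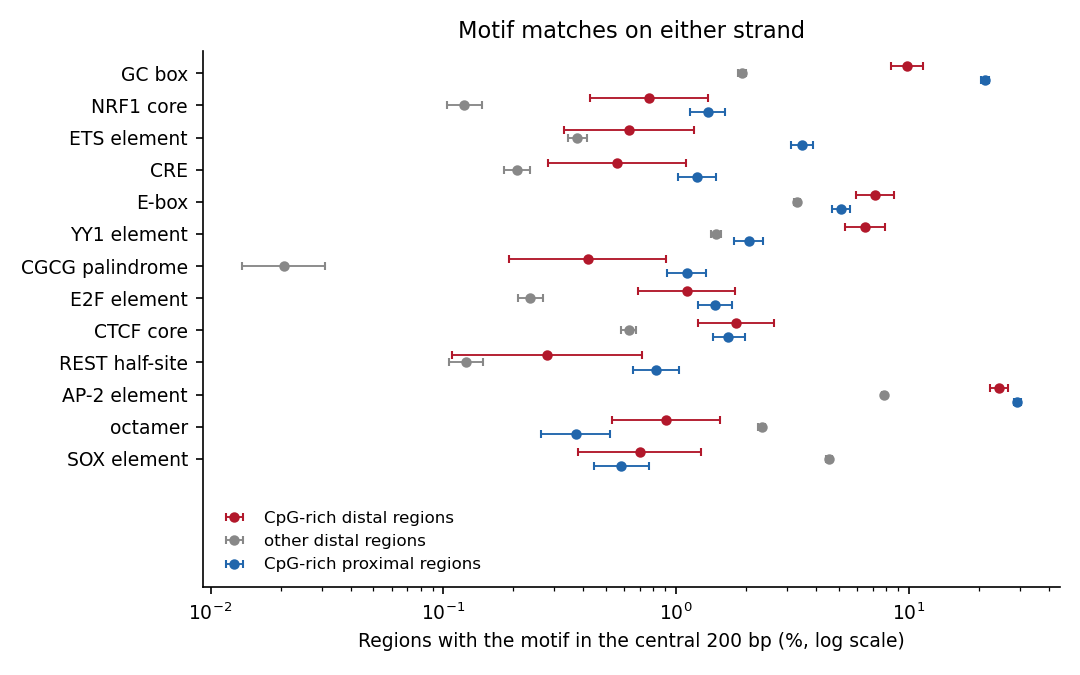
Share of regions with each motif in the central 200 bp (horizontal axis, %, log scale) for the CpG-rich distal regions, the other distal regions and the CpG-rich proximal regions, with 95% Wilson intervals. The GC box was found in 9.83%, 1.92% and 21.3%, and the SOX element in 0.697%, 4.56% and 0.583%.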

How the data were processed

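ATAC-seq was done on 12 libraries of ZHBTc4 and 2TS22C cells. The authors aligned reads to mm10 (GRCm38) with STAR 2.6.1c, removed duplicates with Picard, used MACS2 2.1.1.20160309 to find peaks and merged these with BEDTools. Whether peaks were found per replicate is not given in the sources used here. The deposited values are the chromosome, start and end of 170548 regions (3 columns), with 0 columns for single samples. The paper's methods leave out peaks above 5 kb and those found in Input or on a blacklist. Regions above 5 kb remain in the list (16 in all), and whether it holds Input or blacklisted peaks is not known.

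GC content, CpG ratio and soft-masking were read from GRCm38.p6, TSSs, exons and genes from GENCODE M21, a later release than that of the authors, and further TSSs from RefSeq. Coordinates are counted from 1. Where several positions applied to a center, coding exons came first, then 5' UTRs, 3' UTRs, other exons and introns. Members and gene lists were chosen with earlier results of these data known, and no test against chance was made. All 1434 members entered every share without a further filter, except where a smaller number is given. Genes named were the 10 with the most members, up to 6 of each of 5 lists, the densest windows of 100 kb, the 5 farthest and 3 widest members and those at the limits. Some items that this rule names are not reported here. Functions were tested on simulated data. Python 3.11.15, NumPy 2.4.6, pandas 2.3.3, SciPy 1.17.1 and matplotlib 3.10.9 were used.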

Additional observations from a re-analysis of the deposited data

How the results depend on the processing

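The number of CpG-rich distal regions, 1434, was 2335 with a CpG ratio of at least 0.60, 624 with at least 0.75, 865 with a width of at least 500 bp and 2814 with the composition of the central 200 bp, and it stayed within 1.5 times under the other 7 alternatives (965 to 2124). The share in exons, 41.8%, was 45.9% with a GC content of at least 60%, 47.2% with a width of at least 500 bp, 37.4% with centers more than 2 kb from a TSS and 48.6% without regions more than 50% soft-masked. The intergenic share, 35.8%, was 31.8%, 32.1%, 42.0% and 29.8% under the same settings. The developmental share, 22.4%, was 25.0% without the masked regions and 21.6% to 23.8% otherwise. Leaving out regions near a RefSeq TSS gave 43.9%, 34.8% and 22.3% for these shares. The share of members in an island that reaches a promoter, 14.2%, was 12.0% with islands of at least 500 bp and 2.65% where the island had to cover a TSS. The share of orphan islands with a region, 29.6%, was 64.1% for islands of at least 500 bp, 81.5% for those with at most 50% masked (added after seeing the data) and 23.1% where regions had to cover at least 50% of the island. The share with a GC box, 9.83%, was 24.1% in the whole region and 18.1% for its first 7 letters. The YY1 share, 6.49%, was 0.810% without masked members (added after seeing the data).

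No paired analysis was possible because merged positions carry no values of single libraries. For the same reason no sample could be left out in turn, and no stricter peak threshold could be applied, since the list has no score. The depth of the libraries is unknown. A region found in 1 library and a region found in all 12 count the same here.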

Other observations

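The same rule found 63 regions on the X chromosome, 2.46% of its 2556 distal regions. Of these, 13 had Bcor, a corepressor that is part of a variant Polycomb complex, as their nearest protein-coding gene, 11 of them in introns, with widths of 252 to 1566 bp. No other gene on X had more than 3. Bcor was singled out after these counts were seen, and the number of all distal regions nearest to it is not given here. Coding exons held 9 of the 63 (14.3%), introns 20 and intergenic sequence 33, and 24 (38.1%) were more than 50% soft-masked. On the Y chromosome 11 of 67 distal regions passed the rule, and 7 of the 11 were more than 50% soft-masked. X and Y stand outside the counts above.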
